A study of Homo sapiens with 11 samples.

Results

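The interleukin-1 (IL-1) family and its receptors are described here by 8 genes, IL1A, IL1B, IL1RN, IL1F7, IL18, IL1R1, IL1R2 and IL1RAP, in the prostate cancer cell line PC-3 of human origin after transfection of small RNA duplexes. Members were all probes that the array design names for one of these genes, which gave 14 probes for the 8 genes, of 41000 probes for 30484 gene names on the array. The genes were selected on the signals of these same 11 arrays, each duplex against its mock arrays, so their differences from mock are given as a description, and no p-value is given for them. IL1F7 is the design's name for the gene now called IL37.

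The ligands of this family act on neighbouring cells through paired receptor chains. IL-1α (IL1A) and IL-1β (IL1B) bind the receptor IL1R1, which recruits the accessory chain IL1RAP, and the intracellular part of the complex signals through MYD88, IRAK kinases and TRAF6 to NF-κB. The antagonist IL1RN occupies IL1R1 without signalling, IL1R2 is a decoy that binds ligand and has no signalling domain, IL-18 (IL18) uses a separate receptor, and IL-37 (IL1F7) is known as an anti-inflammatory member. IL-1β and IL-18 are made as precursors that caspase-1 cleaves, and epithelial tumour cells are known to make several of these ligands.

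All cells were PC-3 cells at 24 h after transfection, and each array carried 150 ng of RNA mixed from 4 transfections. The 4 mock arrays carry RNA of cells that received only the reagent. The duplexes were dsEcad-640, an siRNA directed to the E-cadherin promoter, on 1 array, miR-302a on 1, miR-372 on 2, miR-373 on 1, miR-520c on 1 and miR-520f on 1. The first 5 of these duplexes carry a common seed, the bases that direct a small RNA to its targets, and their 6 arrays are called common-seed arrays. The arrays formed 3 sets, each on 1 slide: set 1 held mock 1, dsEcad-640 2, miR-302a 3 and miR-372 4, set 2 held miR-520f 6, miR-373 7 and mock 8, and set 3 held mock 9, miR-372 10, mock 11 and miR-520c 12, where the number is that of the sample. The array used as miR-520f is titled miR-530f in 1 field and miR-520f in the others. The labels do not say whether the mock arrays came from separate cultures, so the spread between mock arrays may be only technical. The common-seed arrays were given 1 mean in the tests, so the p-values rest on a spread that also holds differences between the 5 duplexes. These duplexes are not replicates of 1 condition, and 1 array per duplex in a set leaves a duplex's own spread unknown.

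The mature miRNAs are shown because the comparison between the common seed and the seed of miR-520f rests on a shift of 1 base. Capitals mark the seed, bases 2 to 8 from the 5′ end, and the sequences and positions are those of RefSeq on GRCh38.p14. All 5 miRNAs were found there, and 4 of them share 1 seed.
hsa-miR-302a-3p: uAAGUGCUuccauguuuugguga
hsa-miR-372-3p: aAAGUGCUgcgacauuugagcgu
hsa-miR-373-3p: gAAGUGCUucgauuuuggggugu
hsa-miR-520c-3p: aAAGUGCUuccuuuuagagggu
hsa-miR-520f-3p: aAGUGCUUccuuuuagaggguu
In miR-520f the run AAGUGCU lies at bases 1 to 7, and its own seed is AGUGCUU. MIR302A lies on the minus strand of chromosome 4 (mature strand chr4:112648186-112648208), whereas the other 4 lie on the plus strand of chromosome 19, from chr19:53682213-53682234 for miR-520f to chr19:53788748-53788770 for miR-373.

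Levels are given as log2 of the background-subtracted signal of a probe over the 75th percentile of the signals on that array, so that 0 is this percentile and each unit is a doubling. A level compares arrays for the same probe and not probes with each other. Between 54.3% (miR-520f 6) and 72.7% (mock 11) of the probes were well above background on 10 arrays and 88.1% on miR-372 4, where dim probes were raised most: among the 14679 probes not well above background on mock 1, the median difference of miR-372 4 from mock 1 was 2.46. Among the 13550 probes not well above background on mock 8, the median difference from mock 8 was 1.21 on miR-520f 6 and 0.86 on miR-373 7, and on the other 4 duplex arrays the like median lay between -0.55 and 0.52. The cell line's markers were measured on the mock arrays: KRT8, KRT18, KRT19, TACSTD1 (now EPCAM) and VIM, 5 genes listed as markers of this epithelial cancer line, were well above background on the 4 mock arrays. In the common-seed comparison both probes of KRT8 (0.50 and 0.88) and 3 of the 4 probes of KRT18 (0.62 to 0.79) were called higher by limma, and no probe of KRT19, TACSTD1 or VIM was called. Of the 3 probes of KLK3, which is low in these cells, 1 was above background on the 4 mock arrays. Of 9 leukocyte genes, 5 had a probe above background on all mock arrays, and PTPRC and LYZ had none on any. None of the leukocyte probes tested passed the threshold in the common-seed comparison.

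Of the 8 genes, 6 had a probe that passed the filter for the fit (6 or more of the 11 arrays with a signal well above background), with 9 of the 14 probes. IL1A and IL1RN had none. The common-seed arrays were compared with mock in a fit with the set as a term, by limma with Benjamini-Hochberg adjustment over 27111 probes. At an adjusted p below 0.05, 1 of the 9 member probes was counted higher, where 2.17% of all probes were called higher. The count of lower member probes was 0, where 2.03% of all probes were called lower. The median difference of the 9 probes was 0.05, beside 0.03 over all probes. With miR-520f compared with mock, 0 member probes were called higher or lower, where 0.307% and 0.366% of all probes were. Between the common seed and miR-520f, 0 member probes differed, where 0.0665% of all probes did. These counts come from the comparisons on which the genes were chosen, so they are a description and not a test of any member.

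Among the ligands, IL1F7 showed the largest difference of the 9 probes that passed the filter. Its probe (A_23_P5654, hg18 chr2:113392720-113392779) was well above background on all 11 arrays. The mock levels were -2.22 on mock 1, -2.38 on mock 8, -1.85 on mock 9 and -2.33 on mock 11, a mean of -2.20 ± 0.24 (SD, n = 4). The levels were -0.34 with dsEcad-640, -0.35 with miR-302a, -0.08 and 0.20 with miR-372, -0.56 with miR-373 and -0.70 with miR-520c. miR-520f lay at -1.65, above every mock array and below every common-seed array. The common-seed and mock arrays did not overlap, which was so with the common seed higher for 3.27% of all probes that passed the filter. The fitted difference of the common-seed arrays was 1.88 (SE 0.19), a 3.67-fold level, and the differences within sets 1, 2 and 3 were 1.96, 1.82 and 1.84. The difference of miR-520f was 0.76 (SE 0.36) in the same fit.

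In the order of the differences from the mock arrays of the set, the miR-372 arrays were first with 2.29 and 2.14 for IL1F7, then dsEcad-640 with 1.87, miR-302a with 1.86, miR-373 with 1.82, miR-520c with 1.40 and miR-520f with 0.73. Neighbours in this order down to miR-520c were apart by at most 0.43, which is less than the 0.48 between the 2 mock arrays of set 3. The step from miR-520c to miR-520f was 0.67. The miR-372 arrays, in different sets, were 0.15 apart.

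IL1B, the main secreted IL-1 of many cells, moved little. Its probe (A_23_P79518, hg18 chr2:113303900-113303959) exceeded background clearly on each of the 11 arrays, with mock levels of 4.10, 4.15, 4.55 and 3.82. The common-seed levels were 3.90 with dsEcad-640, 3.48 with miR-302a, 3.66 and 4.38 with miR-372, 3.57 with miR-373 and 3.65 with miR-520c, and miR-520f gave 4.26. The groups overlapped: 5 of the 6 common-seed arrays lay below the mock mean of their set and miR-372 10 above it. The fitted difference was -0.34 (SE 0.20), smaller than the 0.73 between the mock arrays of set 3. With miR-520f it was 0.22 (SE 0.39).

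IL18, known to raise interferon-γ production in lymphocytes, differed between sets more than between transfections. Its probe (A_23_P104798, hg18 chr11:111526021-111526080) lay between -0.49 and -0.22 on the 7 arrays of sets 1 and 2 and between 0.41 and 0.85 on the 4 arrays of set 3. The mock levels were -0.43, -0.38, 0.56 and 0.85. Within sets the common-seed arrays differed from mock by -0.29 to 0.01, and the fitted difference was -0.13 (SE 0.09), with 0.09 (SE 0.17) for miR-520f. No array stood apart from the mock of its set by more than 0.29.

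IL1A, the cell-associated IL-1, was not well above background on any of the 11 arrays (A_23_P72096, hg18 chr2:113248833-113248892). Its signals lay between -8.97 and -4.90, the highest on miR-372 4, and give no level.

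Apart from IL18, the genes of the ligands and the antagonist lie together on chromosome 2. The probes of IL1A, IL1B, IL1F7 and IL1RN run from base 113248833 to base 113607538 of hg18. Of these genes only IL1B and IL1F7 had a probe that passed the filter. The common-seed and mock arrays overlapped for IL1B and not for IL1F7. Over all probes that passed, 3.27% had every common-seed array above every mock array and 3.39% had every one below.

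IL1RN, the receptor antagonist, was near background on the arrays other than miR-373 7. Probe A_23_P209995 (hg18 chr2:113607479-113607538) passed the scanner software's mark for signals well above background with miR-373 7 and miR-520c 12 alone. Its level on miR-373 7 was -1.71, and on the other 10 arrays it lay between -7.03 and -4.64. Against mock 8 the level on miR-373 7 was at least 12.9-fold higher, and that on miR-520c 12 at least 1.72-fold higher than the mock arrays of set 3, bounds that take the lowest signal well above background on a mock array, or the probe's own signal where that is higher, in place of the dim signal. The second probe, A_32_P38125 (hg18 chr2:113587066-113587125), passed this mark on 5 arrays, at -6.16, -6.07, -5.89 and -6.17 on the 4 arrays of set 3 and at -2.50 on miR-373 7, at least 7.46-fold higher than mock 8. In set 3 the common-seed arrays of this probe were within 0.14 of the mock mean. Neither probe passed the filter, and the high level rests on 1 array.

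IL1R2, the decoy receptor, had the same array at the top with 1 of its 2 probes. Probe A_24_P63019, which joins 2 stretches between bases 101998937 and 102002582 of chromosome 2 in hg18, was well above background on miR-373 7 only, at -2.21, at least 9.15-fold higher than mock 8, and between -9.08 and -4.60 on the other arrays. Probe A_23_P79398 (hg18 chr2:102011208-102011267) did not have this pattern: it was not well above background on miR-373 7, where its signal was -4.61 beside -4.77 on mock 8. That probe lay at -5.25, -4.77, -4.77 and -4.34 on the mock arrays, of which mock 1 was not well above background, and at -4.71, -4.59, -3.19, -4.61, -4.27 and -3.67 on dsEcad-640 2, miR-302a 3, miR-372 4, miR-373 7, miR-372 10 and miR-520c 12. All 6 common-seed arrays lay above the mock mean of their set, as for 16.7% of all probes, and the groups overlapped. In set 1, where mock 1 was dim, the levels were at least 1.45-fold higher with dsEcad-640, 1.58-fold with miR-302a and 4.16-fold with miR-372. The difference was 2.06 on miR-372 4, the array whose dim probes were raised by a median of 2.46, and 0.29 on miR-372 10. The part of the raised dim signals in this value was not tested. The fitted difference was 0.66 (SE 0.34), which takes mock 1 at its measured signal. It was 0.49 without miR-372 4 and lay between 0.15 (normexp background correction) and 1.08 (set 1 alone) under 19 alternatives. On miR-520f the probe was not well above background.

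The spots behind the high levels of IL1RN and IL1R2 on miR-373 7 were uneven. The SD over the pixels of a spot was 35.8% and 44.8% of the mean signal for the IL1RN probes, 46.6% for the IL1R2 probe and 69.9% for an IL1R1 probe on this array. On the other 10 arrays these 4 probes had between 16.1% and 31.4%. Among 1849 probes with a mean signal of 180 to 230 on miR-373 7, the range that holds these 4 spots, the median was 15.3% and the 95th percentile 34.5%. The scanner software marked none of the 4 spots as an outlier. Of the 13550 probes not well above background on mock 8, 1.24% were well above background on miR-373 7 and at least 4 log2 units higher there, and 3 of the 5 member probes dim on mock 8 were among them. The share was 1.34% on miR-520f 6 of the same slide and between 0.0749% and 0.556% on the others except miR-372 4, with 3.96%. The members were chosen on these signals, so their count of 3 of 5 is a description and not a test. The part of the uneven spots in these levels was not tested.

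**Figure D1:**
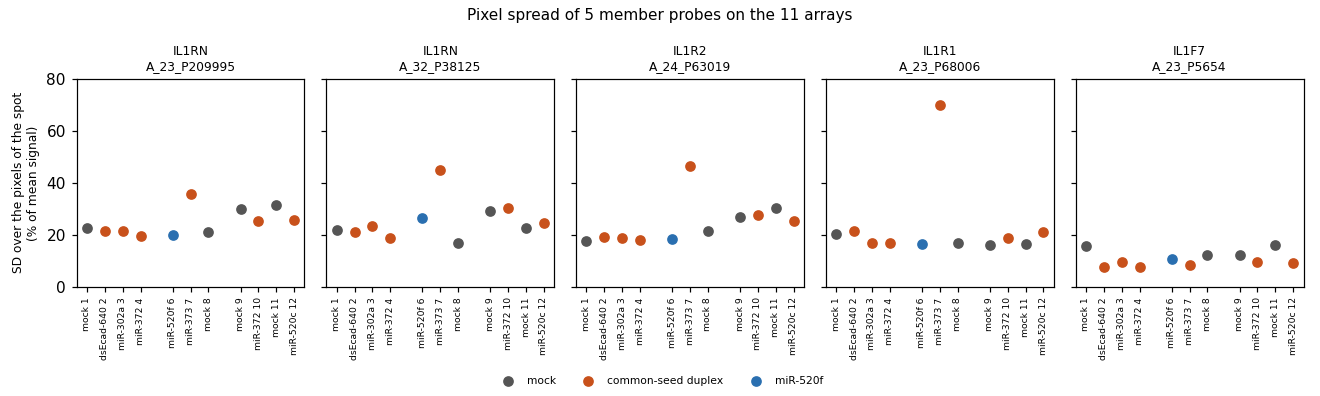
The y axis shows the SD over the pixels of a spot as a percentage of its mean signal for 5 member probes, the x axis the 11 arrays, and colours the kind of transfection. The IL1RN, IL1R2 and IL1R1 probes stand at 35.8% to 69.9% on miR-373 7 and no higher than 31.4% elsewhere, whereas the IL1F7 probe lies at 8.40% on miR-373 7.

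IL1R1, the signalling receptor of IL-1, was measured by probe A_23_P68006 (hg18 chr2:102158420-102158479) on 10 of the 11 arrays. Mock levels were -4.17, -4.31, -3.84 and -3.57. With dsEcad-640 the level was -4.59, with miR-302a -4.75, with miR-372 -3.96 and -4.62 and with miR-520c -4.52. miR-373 7 was alone at the top at -2.65, which is one of the 4 uneven spots above. The fitted difference of the common-seed arrays was -0.10 (SE 0.38) with miR-373 7 and -0.61 without it or without mock 8, and the differences within sets were -0.27, 1.67 and -0.86 for sets 1, 2 and 3. On miR-520f the probe was not well above background, and since the lowest signal well above background on that array was above the level of mock 8, no fold is given. The second IL1R1 probe, A_24_P200023 (hg18 chr2:102161826-102161885), was well above background on miR-372 4 only, at least 1.68-fold higher than mock 1, on the array whose dim probes were raised most.

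IL1RAP, the chain that completes the IL-1 receptor, had 4 probes that passed the filter. Probes A_23_P170857, A_24_P148762 and A_24_P180165 are annotated to transcript variant 1 and lie within hg18 chr3:191848948-191851721, and A_23_P336554 (hg18 chr3:191830388-191830447) is annotated to transcript variant 2. The variant 1 probe A_23_P170857 lay at -1.93, -1.96, -1.43 and -1.19 on the mock arrays and at -0.56 on miR-520f, a difference of 1.40 from mock 8. The common-seed arrays of this probe lay between -1.71 and -0.46 and overlapped with mock. All were above the mock mean of their set, by 0.23 to 0.85, as for 16.7% of all probes. The fitted differences were 0.46 (SE 0.15) for the common seed and 1.50 (SE 0.29) for miR-520f, 1.37-fold and 2.83-fold.

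The other variant 1 probes were closer to background and gave less certain values. Probe A_24_P148762 lay at -3.30 on miR-520f and at -4.77 on mock 8, a difference of 1.47, next to 1.43 on miR-372 4, with a fitted difference of 1.83 (SE 0.56) for miR-520f and 0.41 (SE 0.30) for the common seed. Under the other settings the miR-520f difference of this probe lay between 0.63 and 1.92. Probe A_24_P180165 was not well above background on miR-520f or miR-373, and its within-set difference was larger on miR-372 4 (1.83) and miR-520c 12 (0.75) than the 0.65 on miR-520f. Its fitted difference for miR-520f was 1.41 (SE 0.94), between 0.21 and 1.50 under the other settings, and for the common seed 0.05 (SE 0.50). The fitted values for miR-520f also draw on miR-373 7 through the set term, where the differences from mock 8 were -1.47 for this probe and -0.31 for A_24_P148762. Both of these probes are dim, and dim probes were raised on miR-520f 6 and miR-372 4 as given above; the part of this in their values was not tested. The variant 2 probe lay at -3.78, -3.66, -3.03 and -2.60 on the mock arrays and at -3.38 on miR-520f, with fitted differences of 0.35 (SE 0.26) and -0.01 (SE 0.14). After the mean of each set was taken off, the 4 probes correlated with each other over the 11 arrays at a Pearson r of 0.42 to 0.87, a description over arrays that share slides.

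**Figure D2:**
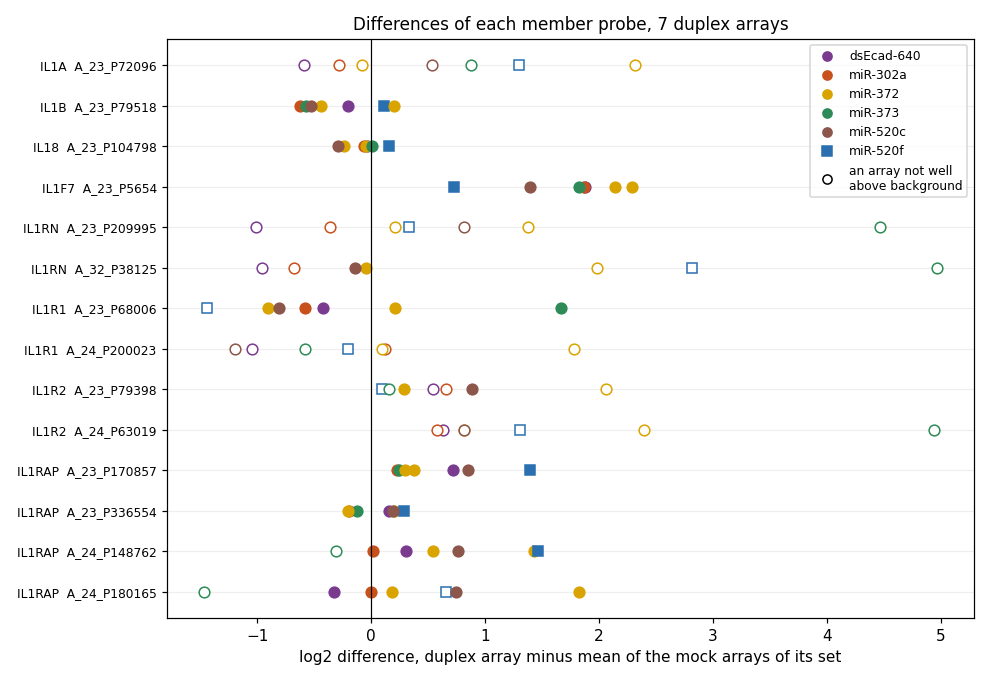
The x axis shows the log2 difference of each of the 7 duplex arrays from the mean of the mock arrays of its set, with a line for each of the 14 member probes, colours for the duplexes, squares for miR-520f, and open symbols where the duplex array or a mock array of its set was not well above background. IL1F7 lies at 1.40 to 2.29 on the common-seed arrays, and miR-520f is the highest filled point of IL1RAP A_23_P170857, at 1.40.

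The likeness of other genes to the members was measured by Pearson r over the 11 arrays after the mean of each set was taken off, and the 3 genes with the highest r are named for each probe. For IL1F7 these were KRT8P23, a keratin 8 pseudogene, PHACTR3 and CCNF, a cyclin, at 0.97, 0.96 and 0.96. For IL1B they were SWAP70, RASSF3 and AIG1 (0.98, 0.97 and 0.97), and for IL18 HSPA6, MLF1 and HSPBAP1 (0.97, 0.96 and 0.94). For IL1R1, whose pattern is set by miR-373 7, they were KIAA0841, APOL6 and TMEM71 (0.98, 0.96 and 0.93). The IL1R2 probe that passed the filter was most like PHF8, SPINT1 and SALL4, each at 0.98. Its largest difference from mock was on miR-372 4, the array whose dim probes were raised most. For IL1RAP A_23_P170857 the genes were PPM1D, RAPGEF2 and HBEGF (0.98, 0.97 and 0.97), and for the variant 2 probe NUDT13, ZNF28 and SNTB1 (0.96, 0.95 and 0.95). IL1RAP A_24_P148762 gave CCT6B, ARID3A and FGD2 (0.98, 0.97 and 0.96). A_24_P180165, whose largest difference was also on miR-372 4, gave SLC30A3, CEL and FSCN2 (0.99, 0.98 and 0.96). The ranking took, of 26912 probes, those of other genes with a known gene symbol. It is over few arrays and carries no test.

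The remaining genes of the pathway were taken as 4 lists and tested in the fit across all probes. The lists were chosen with earlier results of these data known, so their called shares and adjusted p-values are not independent evidence. The list of other IL-1 family ligands and receptors showed no change that passed the test. Of its 14 genes with 17 probes, 6 genes with 7 probes passed the filter, and limma called 0 of the 7. The 1 probe at an unadjusted p below 0.05 was that of SIGIRR, at -0.20 (SE 0.08, limma adjusted p = 0.21). IL18BP, which binds and blocks IL-18, had the largest difference, 0.36 (SE 0.18) with 1 probe and 0.39 (SE 0.55) with the other, at adjusted p = 0.32 and 0.76. IL1F10, which encodes IL-38, followed with 0.25 (SE 0.40, adjusted p = 0.79). On miR-372 4, the array whose dim probes were raised most, the difference of IL1F10 was 1.62, beside -0.62 to 0.42 on the other common-seed arrays. The IL18BP probe at 0.39 also had its largest difference there, 2.76. The 7 differences had a median of 0.13. IL1F5, IL1F6, IL1F8 and IL1F9, the IL-36 group, had no probe well above background on a mock array.

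Receptor-proximal signalling, from MYD88 and the IRAK kinases to NF-κB, showed a fall of RELA and PELI3 among 22 genes with 31 probes that passed the filter, of 26 genes listed. limma called 2 of the 31 lower and 0 higher, 6.45% beside 2.17% higher and 2.03% lower over all probes, and the median of the 31 differences was 0.08. RELA, which encodes the p65 subunit of NF-κB, lay at 0.62, 0.74, 0.01 and 0.08 on the mock arrays. Its levels were -0.73 with dsEcad-640, -0.30 with miR-302a, -0.49 and -0.85 with miR-372, -0.11 with miR-373 and -1.03 with miR-520c. Every common-seed array was below every mock array, as for 3.39% of all probes, and by 0.86 to 1.35 below the mock of its set. RELA fell by 1.00 on the log2 scale (SE 0.11, limma adjusted p = 0.0058), 2.00-fold. Without mock 1, none of the genes in the 4 lists was called.

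On miR-520f RELA lay at -0.33, and its difference from mock was -1.15 (SE 0.20, limma adjusted p = 0.058), which did not pass the threshold. The difference between the common seed and miR-520f was 0.15 (SE 0.20, limma adjusted p = 0.97). PELI3, an E3 ubiquitin ligase that acts on IRAK1, fell by 0.52 (SE 0.09, limma adjusted p = 0.022), with mock levels of 0.39 to 0.88 and common-seed levels of -0.05 to 0.39. It was lower than the mock of the set on all 6 arrays, as for 11.5% of all probes. The call of PELI3 held under 9 of 18 alternatives. The partners of RELA and the adaptors were not called: NFKB1 was at 0.06 (SE 0.11, adjusted p = 0.83), TRAF6 at 0.15 (SE 0.08, adjusted p = 0.34), and the probes of MYD88 at 0.03 (SE 0.07, adjusted p = 0.87) and 0.19 (SE 0.17, adjusted p = 0.61).

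The genes for maturation and release of the cytokines were called at about the share of all probes. In this list 17 of 22 genes with 23 of 32 probes passed the filter, and limma called 1 probe lower and 0 higher, 4.35% beside 2.17% higher and 2.03% lower over all probes, with a median of -0.11. NLRP3, the sensor of an inflammasome, fell by 0.95 (SE 0.21, limma adjusted p = 0.049), from mock levels of -3.67 to -3.38 to common-seed levels of -5.04 to -3.99, of which miR-373 7 was not well above background. This call held under 1 of 16 alternatives, without miR-372 4. CASP1, the protease that cleaves IL-1β and IL-18, had a larger difference of -1.81 (SE 0.42) that did not pass, at adjusted p = 0.055, and that lay between -2.03 and -0.71 under 16 alternatives. Its mock levels were -4.17, -4.21, -3.20 and -2.69, and its common-seed levels -5.65, -6.65, -4.36, -6.35, -5.15 and -4.65 in the order of the sample numbers. All common-seed levels were lower than every mock array, as for 3.39% of all probes, but only 3 of the 6 were well above background. The highest of them was miR-372 4, the array with raised dim probes, with a difference of -0.19 from mock 1. On miR-520f CASP1 was not well above background, and no difference is given.

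Genes that IL-1 is known to induce in epithelial cells were called in both directions. In this list 22 of 26 genes with 25 of 34 probes passed the filter, and limma called 2 probes higher and 1 lower, 12.0% beside 2.17% higher and 2.03% lower over all probes. Of the 25 differences 22 were below 0, with a median of -0.17, where 44.9% of all probes were below 0. MMP1, a collagenase, lay at -1.31, -1.23, -0.91 and -0.33 on the mock arrays. It lay at 0.43 with dsEcad-640, 0.22 with miR-302a, -0.04 and 0.57 with miR-372, -0.25 with miR-373, 0.52 with miR-520c and 0.54 with miR-520f. MMP1 rose by 1.24 (SE 0.16, limma adjusted p = 0.0093) with the common seed, 2.36-fold, and by 1.91 (SE 0.30, limma adjusted p = 0.043) with miR-520f, 3.75-fold. The SE and p for miR-520f rest on the spread of the other arrays, since miR-520f has 1 array. No other probe of the 4 lists was called with miR-520f, and the difference between the common seed and miR-520f did not pass (-0.67, SE 0.30, limma adjusted p = 0.70).

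ZC3H12A, an RNase that degrades inflammatory mRNAs, rose by 0.95 (SE 0.21, limma adjusted p = 0.048), from -2.02 to -1.59 on the mock arrays to -1.26 to -0.26 on the common-seed arrays. LIF, a cytokine of the IL-6 family, fell by 0.49 (SE 0.11, limma adjusted p = 0.046) with 1 probe, whereas its other probe was at -0.14 (SE 0.57, adjusted p = 0.93). The call of ZC3H12A held under 7 and that of LIF under 6 of 18 alternatives. The chemokine IL8, now CXCL8, is named after its values were seen: its difference was the largest of the list, -2.20 (SE 0.58), and did not pass at adjusted p = 0.076. The mock levels of IL8 were -1.68, -1.66, -1.10 and 1.42, so that the mock arrays of set 3 were 2.52 apart, and the common-seed levels were -3.88 to -1.94. IL6, a classical IL-1 response gene, was at -0.91 (SE 0.58, adjusted p = 0.44) and CXCL1 at -0.17 (SE 0.26, adjusted p = 0.78).

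**Figure D3:**
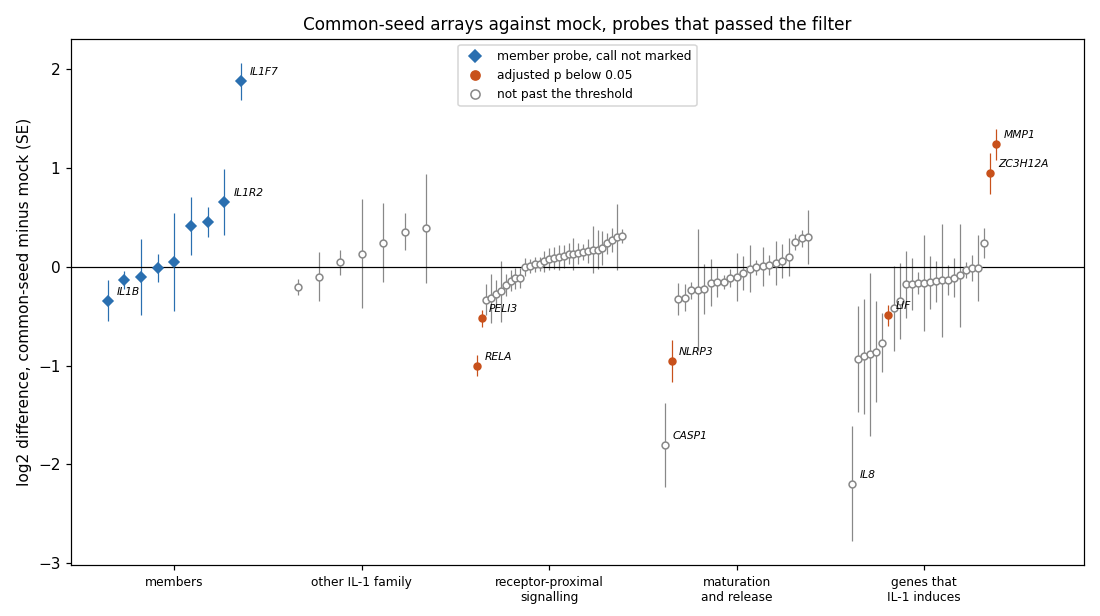
The y axis shows the fitted log2 difference of the common-seed arrays from mock with its SE for each probe that passed the filter, the x axis the members, which were chosen on this comparison and whose calls are not marked, and the 4 lists, and filled orange points mark an adjusted p below 0.05. IL1F7 stands at 1.88 among the members, RELA is the lowest of the signalling genes and MMP1 stands at 1.24 among the genes that IL-1 induces, while IL8 (-2.20) and CASP1 (-1.81) are lower but did not pass.

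**Figure D4:**
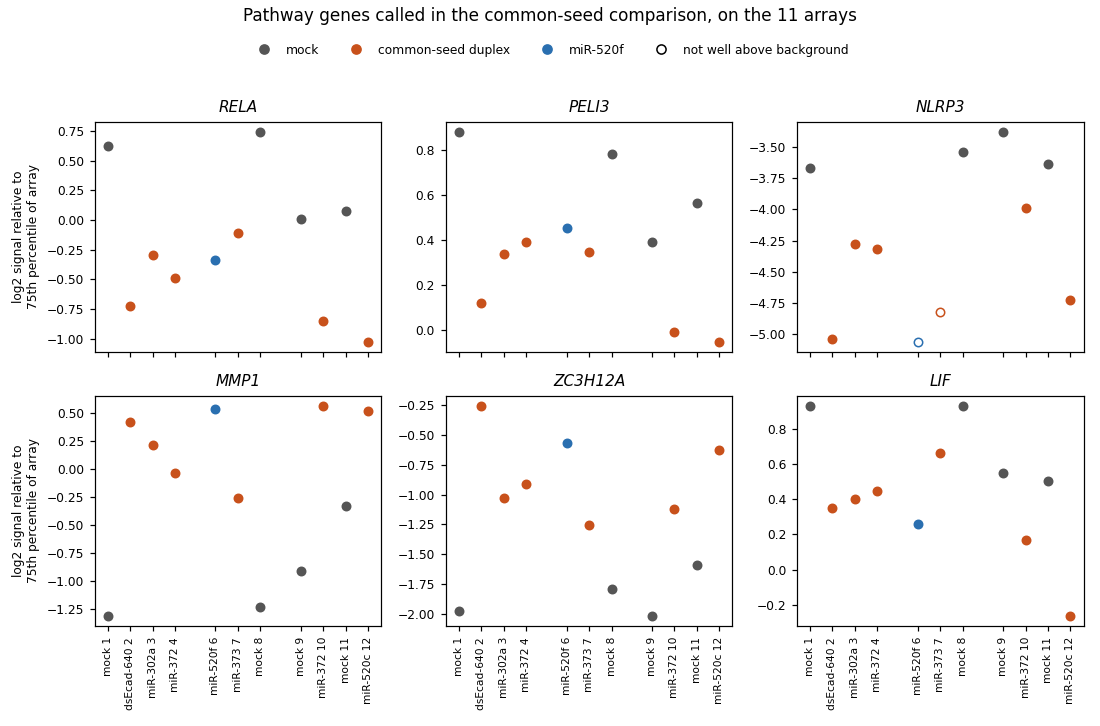
The y axis shows the log2 signal over the 75th percentile of the array's signals for the 6 pathway genes called in the common-seed comparison, the x axis the 11 arrays grouped by set, colours the kind of transfection, and open symbols signals not well above background; the called probe of LIF is shown. All common-seed levels of RELA (-1.03 to -0.11) lie below its mock levels (0.01 to 0.74), and those of MMP1 (-0.25 to 0.57) lie above its mock levels (-1.31 to -0.33). Over all probes that passed the filter, 3.39% lay wholly below mock in this way and 3.27% wholly above.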

How the data were processed

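Cy3-labelled RNA of PC-3 cells was hybridised to 11 Agilent whole human genome arrays and scanned. The authors deposited the output of Feature Extraction 10.5.1.1, in which the processed signal is an intensity with background subtracted and trends removed within the array, low values replaced by estimates, and no scaling between arrays; probe positions are hg18. The mean and median intensity and the pixel SD of a spot, as deposited, have no background removed. The authors also deposited a table of log2 values whose normalization is not given in the sources used here, and it was used as an alternative. The marks for outliers, saturation and signals well above background are per the file headers flags of the scanner software, a further kind of column.

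Here each array's log2 processed signals were centred on the log2 of their 75th percentile, outlier-marked spots were left out (52 to 209 of 43376 an array, and no spot was saturated), and spots of a probe were averaged. Probes well above background on at least 6 of 11 arrays were fitted (R 4.3.3, limma 3.58.1) with a mean for common-seed, mock and miR-520f arrays and a term for the set, and p-values were adjusted by Benjamini-Hochberg over all of them. The single miR-520f array is assumed to vary like the others. Of the 14 member probes, 13 matched a current symbol by accession; 5 of 5 miRNAs matched by name. The fit was tested on simulated data. The number of arrays limits the precision.

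The members, the 4 lists and the tests were chosen with earlier results of these data known. Named from each list were the genes called in the common-seed comparison, or the 2 with the largest difference where fewer than 2 were called; IL8, and the genes given as not called, were named after their values were seen. Alternatives were no set term, other normalizations and background correction, other filters, the authors' table and leaving out arrays. Summaries were computed with Python 3.11.15, numpy 2.4.6, pandas 2.3.3 and matplotlib 3.10.9. Some marker genes are not reported here.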

Additional observations from a re-analysis of the deposited data

Results flagged for a closer look

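In 49 groups of arrays examined for an array that stands apart, those of the member probes and of the named pathway probes, 2 had an array whose gap to its nearest neighbour was a larger share of the range than the 95% limit for groups of that size. Chance gives about 1 such group in 20. For IL18BP probe A_24_P278602, the difference of miR-372 4 from mock 1 was 2.76, beside -0.26 to 0.58 on the other 5 common-seed arrays, a gap of 0.721 of the range, on the array whose dim probes were raised most. For PELI3, the difference of dsEcad-640 from mock 1 was -0.76, beside -0.54 to -0.43 on the other 5, a gap of 0.665 of the range.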

How the results depend on the processing

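The difference of IL1F7 lay between 1.52 and 2.04 under 21 alternatives, and that of IL1B between -0.57 and -0.17. The differences of IL1R1 (4 of 19 alternatives), IL18 (1 of 21) and the IL1RAP probes A_23_P336554 (6 of 21), A_24_P148762 (1 of 19) and A_24_P180165 (7 of 19) took the other sign under some; A_24_P180165 ranged from -1.47 within set 2 to 0.50 within set 1. The miR-520f difference of IL1RAP A_23_P170857 lay between 1.07 and 1.53 under 8 settings, and, under 6, that of A_24_P148762 (1.83) between 0.63 and 1.92 and that of A_24_P180165 (1.41) between 0.21 and 1.50. RELA was called in 16 of 18 alternatives (not with no set term or without mock 1), MMP1 in 17 of 18 (not without mock 1), PELI3 in 9, ZC3H12A in 7 and LIF in 6 of 18, and NLRP3 in 1 of 16; CASP1 was called in 4 of 16, IL8 in 2 of 18 and IKBKB in 3 of 18. The direction of each of these was the same throughout.

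The common-seed comparison called 1138 probes, 382 with no set term, 236 with the median in place of the 75th percentile (53 higher and 183 lower, beside 587 and 551), 222 with no filter, 2100 with probes above background on all 11 arrays and 2012 with the authors' table. Without an array it called between 24 (without mock 1) and 1935 (without miR-372 4): 281 without mock 8 or miR-373 7, 411 without mock 9, 369 without mock 11, 643 without dsEcad-640, 423 without miR-302a, 398 without miR-372 10 and 588 without miR-520c.

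miR-520f against mock called 182 probes, 83 with no set term, 454 with quantile normalization, 103 with normexp, 1 with no filter and 341 with all 11 arrays; with the median it called 119 higher and 28 lower, beside 83 and 99. The common seed against miR-520f called 18 (8 higher and 10 lower), 169 with quantile normalization (111 and 58), 120 with the median (17 and 103), 29 with normexp, 0 with no filter, 63 with all 11 arrays and 11 with dim signals raised.

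The signalling list had 2 calls, 0 with no set term, 1 with the median and 1 with no filter, and 0 (without mock 1) to 2 without an array: 1 without mock 8, mock 11, miR-302a, miR-373 or miR-372 10. The maturation list had 1 call, and 0 with no set term, no filter, all 11 arrays, dim signals raised or the authors' table, and 0 without any array but miR-372 4, without which it had 2. The list of genes that IL-1 induces had 3 calls, 1 with no filter, and 0 (without mock 1) to 3 without an array: 1 without mock 8, 9 or 11, miR-302a, miR-373, miR-372 10 or miR-520c. The list of other family members had 0 in every alternative. Each fit without an array had 5 residual degrees of freedom, beside 6 in the fit of all arrays. The causes of the differing counts were not tested. No paired analysis by replicate number was possible because no number is shared between groups; arrays of 1 slide are matched through the set term of the fit. Signals near background limit what can be said of IL1A, IL1RN, IL1R2 and the second IL1R1 probe.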
